A study of Rattus norvegicus with 8 samples.

Results

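Smooth muscle contraction is set by cytosolic calcium, which the ion channels and pumps described here control. The set holds the genes of potassium channel subunits, voltage-gated calcium channel subunits, transient receptor potential (TRP) channels, calcium release channels of the endoplasmic reticulum, store-operated entry proteins and calcium pumps. It was measured in primary cultures of aortic (thoracic) smooth muscle cells of the Sprague-Dawley strain of rat. A gene was included when its locus in the RNA table matched 1 symbol beginning with Kcn, Cacn, Trpc, Trpm, Trpv, Itpr, Ryr, Orai, Stim, Atp2a or Atp2b followed by a subunit code, and the locus with the highest mean level stood for the symbol. This gave 141 genes of 14767 with such a locus. The rule fits 158 symbols of the reference, and the 17 without a locus of their own, among them Ryr1, Ryr3, Trpm7 and Cacna1d, were not analysed here.

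Cells without treatment (control) were compared with cells given 0.1 uM angiotensin II (AngII), a vasoconstrictor peptide, for 3 h. Each condition had 1 RNA-seq library, 1 H3K4me3 ChIP-seq library and 1 H3K36me3 ChIP-seq library, so differences are without a check between replicates and no p-value is given. The labels mention serum starvation overnight for the AngII cells only, so starvation and AngII cannot be told apart. Of these histone marks, H3K4me3 sits at promoters and H3K36me3 along the bodies of genes being transcribed. How many animals gave the cells is not stated in the labels.

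AngII acts through a receptor coupled to Gq and phospholipase C. The inositol trisphosphate that this enzyme makes opens calcium channels of the endoplasmic reticulum. When the store empties, Stim proteins in its membrane open Orai channels in the plasma membrane, and TRP channels admit sodium and calcium. Depolarisation opens voltage-gated calcium channels, and open potassium channels counter it. Pumps then return calcium to the store or move it out of the cell.

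The RNA level is in FPKM, fragments per kilobase of transcript scaled to library size, deposited by the authors with a lower and an upper bound that reflect model error only. These bounds follow each value in parentheses. For expressed genes of the set they reached a median of 45.8% of the estimate to either side in control and 45.3% after AngII, and the sequencing depth is not stated in the labels. A gene was called expressed at 1 FPKM or more in at least 1 library. Log2 ratios compare AngII with control after adding 1 to each FPKM value, which understates differences of low genes. Its median over the 8354 expressed symbols was -0.22, so a value near 0 lay above the typical gene. An exact 0 is reported as listed at 0, because Mcu, which encodes the channel of mitochondrial calcium uptake found in most cells, was also listed at 0 in both libraries.

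The smooth muscle identity of the cells was visible in their markers. Of 8 smooth muscle markers with a locus 7 were expressed, with Tagln at 5100 FPKM without AngII and 5240 FPKM with it and Myh11 at 96.5 and 84.7 FPKM, while Des stood at 0.734 and 0.557 FPKM. No endothelial marker of 6 was expressed, and 1 of 7 cardiac, 3 of 5 skeletal muscle, 2 of 8 neuron and Schwann cell, 3 of 7 leukocyte and all 6 fibroblast markers were. The summed fibroblast markers stood at 294 and 259 FPKM, the skeletal markers at 22.9 and 37.8 FPKM (mostly Myh1, 17.7 and 32.3 FPKM), and the neuron and Schwann cell markers at 2.93 and 4.21 FPKM. Of the leukocyte markers, Ptprc, Cd3e and Itgam were listed at 0 in both libraries. The part of these other markers in the results below was not tested. In bulk RNA a change in cell mixture and a change in RNA per cell cannot be told apart.

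Only a minority of the channel and pump genes was expressed. Of the 141 genes, 34 (24.1%) reached 1 FPKM, against 56.6% of all symbols, and 42 were listed at 0 in both libraries. All 5 store-operated entry genes and 3 of 4 release channel genes were expressed. At the other end were the voltage-gated potassium channel genes, with 3 of 37, and the pores of voltage-gated calcium channels, with 1 of 8. The remaining 107 genes reached at most 0.861 FPKM. Of the 34 expressed genes, 7 passed the minimum in 1 library only, 5 in control and 2 after AngII, which fixes the direction of those 7. They are Kcnq1, Kcnn1, Kcne4, Kcnab1 and Itpr2 in control and Kcnj4 and Kcnmb4 after AngII, all described below. Counts over the expressed genes are therefore a description.

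After AngII, 4 expressed genes of the set were at least 2-fold higher and 1 was at least 2-fold lower, on the scale with 1 FPKM added. The higher genes were the potassium channel gene Kcnn4, the calcium pump gene Atp2b1, the TRP channel gene Trpc4 and the calcium entry gene Orai1, and the lower gene was the potassium channel subunit gene Kcne4. Over all expressed symbols, 3.89% were 2-fold higher and 2.96% 2-fold lower. Bounds of the libraries did not overlap for 7 higher genes and 1 lower gene, against 3.02% and 2.19% of all expressed symbols. The 3 further genes with bounds apart were Atp2a2, Cacnb2 and Kcnj4. The median log2 ratio of the 34 genes was 0.13, beside -0.22 for all expressed symbols, with a range from -1.64 to 3.19. Scaling the AngII values by 1.21, which brings the median locus to 0, took the number of genes 2-fold higher from 4 to 7 and left the lower count at 1. This scaling raises all other genes too, and the share of all expressed symbols under it was not computed.

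**Figure D1:**
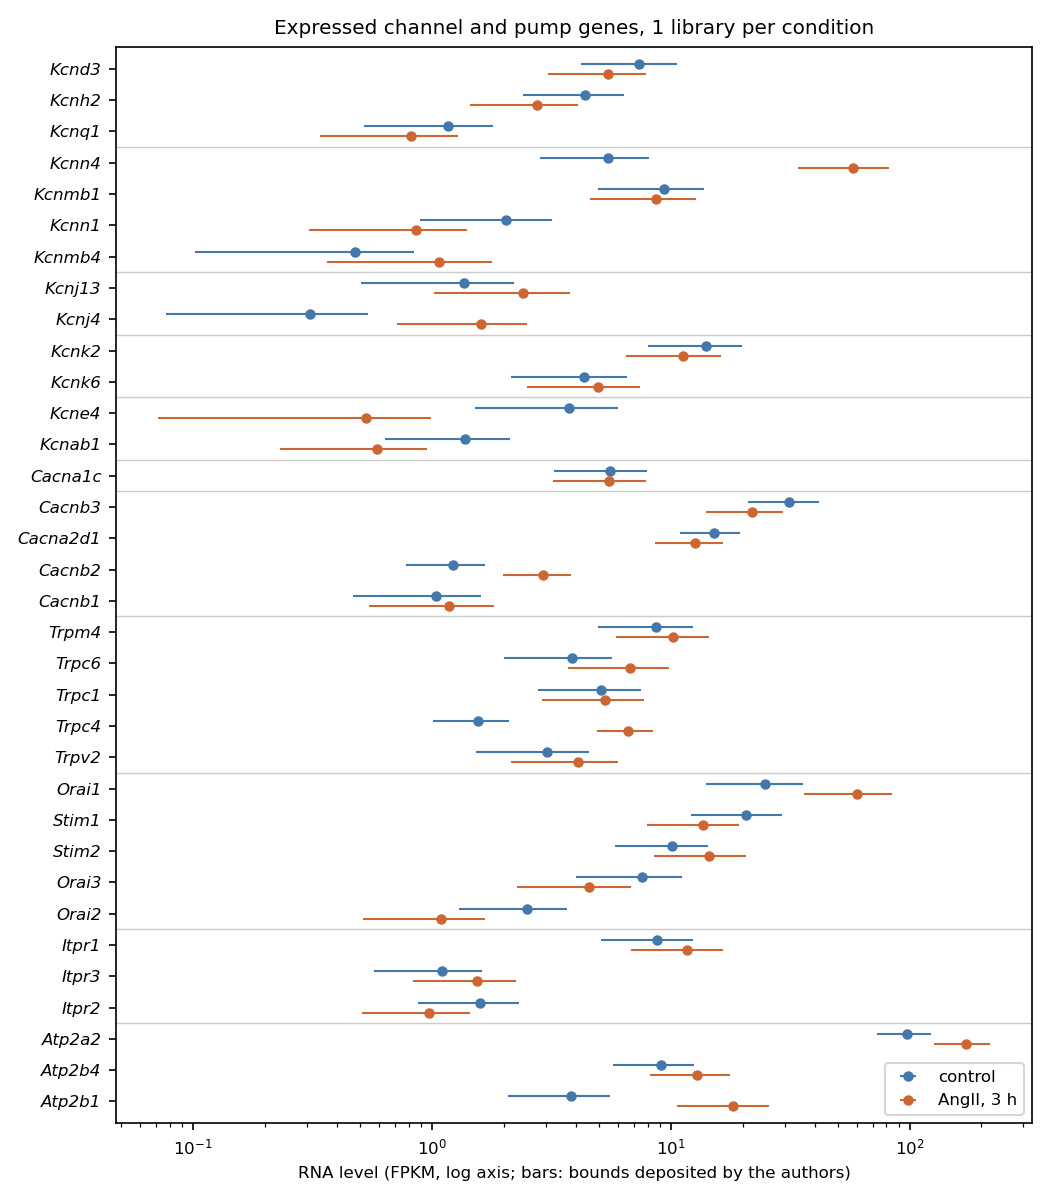
RNA level in FPKM (log axis) of the 34 expressed channel and pump genes in control (blue) and after AngII (orange), 1 library each, with bars for the bounds deposited by the authors; grey lines separate the role groups. Kcnn4, Kcnj4, Cacnb2, Trpc4, Orai1, Atp2a2 and Atp2b1 lie higher after AngII without overlap, and Kcne4 lies lower.

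Promoter sequence is shown for 5 of these 8 genes, namely the 4 genes past 2-fold with a window in the RefSeq table and Atp2a2, the gene with the most RNA. Kcnn4 had no window there. Each window holds the 250 bases before the annotated start on build GRCr8, 5′ to 3′ on the gene's strand, and capitals mark the GC box GGGCGG on either strand.
Atp2a2, chr12:39733269-39733518, plus strand: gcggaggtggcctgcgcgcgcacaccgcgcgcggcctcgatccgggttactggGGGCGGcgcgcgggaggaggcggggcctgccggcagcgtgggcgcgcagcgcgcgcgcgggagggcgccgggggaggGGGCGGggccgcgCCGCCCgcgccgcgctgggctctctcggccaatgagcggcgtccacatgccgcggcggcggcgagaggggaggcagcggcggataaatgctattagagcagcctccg
Orai1, chr12:39209031-39209280, minus strand: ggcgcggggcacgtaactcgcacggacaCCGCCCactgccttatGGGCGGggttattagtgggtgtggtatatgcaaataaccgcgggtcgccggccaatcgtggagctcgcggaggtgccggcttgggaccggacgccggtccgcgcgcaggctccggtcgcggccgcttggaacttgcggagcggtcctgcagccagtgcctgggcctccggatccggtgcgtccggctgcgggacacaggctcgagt
Atp2b1, chr7:35622211-35622460, plus strand: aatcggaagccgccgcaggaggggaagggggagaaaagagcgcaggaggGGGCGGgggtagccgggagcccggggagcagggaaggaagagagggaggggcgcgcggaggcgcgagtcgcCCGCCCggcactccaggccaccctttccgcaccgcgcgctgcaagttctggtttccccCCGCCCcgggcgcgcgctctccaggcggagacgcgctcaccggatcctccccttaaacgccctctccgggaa
Trpc4, chr2:140501046-140501295, plus strand: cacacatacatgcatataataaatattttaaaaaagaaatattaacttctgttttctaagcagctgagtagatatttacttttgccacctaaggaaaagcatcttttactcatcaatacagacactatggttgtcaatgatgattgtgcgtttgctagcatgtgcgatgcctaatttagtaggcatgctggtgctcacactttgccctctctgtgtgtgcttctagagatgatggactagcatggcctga
Kcne4, chr9:87695798-87696047, plus strand: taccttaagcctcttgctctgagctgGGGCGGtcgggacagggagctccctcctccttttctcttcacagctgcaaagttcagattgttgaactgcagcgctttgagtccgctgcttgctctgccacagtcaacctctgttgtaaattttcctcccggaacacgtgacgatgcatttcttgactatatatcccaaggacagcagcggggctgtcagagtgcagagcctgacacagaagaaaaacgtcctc

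The windows of Atp2a2 and Atp2b1 held 3 GC boxes each, that of Orai1 2, that of Kcne4 1 and that of Trpc4 0, and 30.5% of all 33469 windows of the same length held at least 1. The GC content was 80.0% for Atp2a2, 72.8% for Atp2b1, 69.6% for Orai1, 52.4% for Kcne4 and 38.0% for Trpc4, beside a median of 51.2% over all windows. None of the 5 held the AP-1 site TGANTCA (6.34% of all windows), the cyclic AMP response element TGACGTCA (1.59%), the TATA box TATAAA (12.9%) or a CArG box, the binding site of serum response factor (1.5%). Letters were matched on both strands, and a CArG box can itself contain TATAAA. Of the 141 genes, 101 matched a window. For each of these genes only the window with the lowest coordinate was taken. The 26 expressed ones had a median GC content of 65.0% and 22.5 CpG, and the 75 others 59.6% and 12.0 CpG. Over all windows, where a gene can have several, the median was 5 CpG. The histone regions are on build rn4, so they were not laid over these windows.

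Among store-operated entry genes, Orai1 took a larger share after AngII. Orai1, the pore of the calcium release-activated channel, stood at 24.9 FPKM without AngII (14.0 to 35.8) and 60.1 FPKM with it (36 to 84.3). The AngII library was 2.42-fold higher in FPKM, a log2 ratio of 1.24, and the bounds were apart by a narrow margin. The other pore genes were lower, with Orai3 at 7.57 and 4.55 FPKM (-0.63) and Orai2 at 2.49 and 1.09 FPKM (-0.74), both with overlapping bounds. Orai1 therefore made up 71.2% of the summed Orai level in control and 91.4% after AngII. The calcium sensors of the store did not share a direction. Stim1 stood at 20.7 FPKM (12.1 to 29.3) and 13.7 FPKM (7.97 to 19.4), and Stim2 at 10.1 FPKM (5.83 to 14.3) and 14.5 FPKM (8.50 to 20.6). Their log2 ratios were -0.56 and 0.49, and the bounds of both genes overlapped. The scalings, by 1.21 to centre the median locus and by 1.06 to the upper quartile, raise AngII values. Stim2 could therefore not change sign under them, and Stim1 stayed below 0, at -0.30 and -0.49. Stim1 had the higher value in control and Stim2 after AngII, with bounds of the sensors overlapping in both libraries. The listed intervals of Orai2 and Orai3 are shared by 11 and 58 loci.

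Orai1 lies on chromosome 12 (34630107 to 34646316, build rn4). It carried H3K4me3 in both conditions, over 7038 bp in control and 6720 bp after AngII, and H3K36me3 covered 100% of the locus in both. Stim1, on chromosome 1 (159761566 to 159925836), had H3K36me3 over 87.5% of its locus in control and 51.3% after AngII. This was the only expressed gene of the set with an interval of its own whose cover was lower by over 20 points. Stim2 went from 61.4% to 46.9%.

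Release channels of the endoplasmic reticulum differed little. Itpr1, the inositol trisphosphate receptor with the most RNA in these cells, stood at 8.73 FPKM without AngII (5.11 to 12.4) and 11.7 FPKM with it (6.84 to 16.6). Itpr2 stood at 1.59 and 0.974 FPKM and Itpr3 at 1.10 and 1.54 FPKM. None of the 3 had bounds apart, and their log2 ratios were 0.38, -0.39 and 0.27. Itpr1 was above both paralogs in each library, with bounds apart. Ryr2, a ryanodine receptor best known from heart muscle, stood at 0.0754 and 0.0822 FPKM, far below the minimum. Its 587 kb locus had H3K36me3 over 0.401% and 0.373% of its length, whereas Itpr1 was covered over 100% in both conditions.

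Calcium pumps held the gene with the most RNA of the whole set, and all 3 expressed pump genes were higher after AngII as deposited. Atp2a2, the SERCA pump that refills the store, stood at 97.9 FPKM without AngII (73.1 to 123) and 172 FPKM with it (126 to 218). The AngII level was 1.76-fold higher and the bounds were just apart, with a log2 ratio of 0.81 that was 1.09 under centring. Atp2a2 made up 88.3% of the summed pump level in control and 84.7% after AngII. In both libraries its lower bound lay above the upper bound of every other gene of the set. Among the plasma membrane pumps, Atp2b1 stood at 3.83 FPKM without AngII (2.08 to 5.59) and 18.2 FPKM with it (10.6 to 25.8). This was a 4.75-fold difference with bounds apart, a log2 ratio of 1.99 that ranked 95 of 8354 expressed symbols. Atp2b4 stood at 9.12 FPKM (5.75 to 12.5) and 12.9 FPKM (8.18 to 17.7), with overlapping bounds. In control Atp2b4 was above Atp2b1 by a narrow margin of the bounds, and after AngII Atp2b1 was the higher of them with overlapping bounds. The other 3 pump genes, Atp2a3, Atp2b2 and Atp2b3, did not exceed 0.0331 FPKM.

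Atp2b1, on chromosome 7 (36493660 to 36600280), had 4131 bp of H3K4me3 in control and 4160 bp after AngII, while H3K36me3 cover of the locus went from 64.7% to 100%. Atp2a2, on chromosome 12 (35266599 to 35316237), was covered over 100% in both conditions.

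Of 17 TRP channel genes 5 were expressed. These 5 had log2 ratios above 0 as deposited, which scalings that raise AngII values cannot reverse, and 1 of them had bounds apart. Trpc4, a receptor-activated cation channel on chromosome 2 (143304805 to 143485846), stood at 1.56 FPKM without AngII (1.01 to 2.10) and 6.65 FPKM with it (4.90 to 8.40). The libraries differed 4.27-fold without overlap of the bounds, a log2 ratio of 1.58 that ranked 143 of 8354. Its locus had H3K36me3 over 9.76% in control and 69.3% after AngII, the second largest difference among expressed genes with an interval of their own, after Kcne4. Trpc6, which diacylglycerol activates, stood at 3.85 FPKM (2.01 to 5.69) and 6.78 FPKM (3.73 to 9.82), a log2 ratio of 0.68 with overlapping bounds. Trpc1 hardly differed, at 5.12 and 5.30 FPKM. The monovalent cation channel Trpm4, listed at an interval shared by 99 loci, stood at 8.67 and 10.2 FPKM, and Trpv2 at 3.03 and 4.09 FPKM. Thus Trpc4 had the lowest level of these 5 genes in control, and after AngII its bounds overlapped those of all the others. Trpv4, a calcium channel opened by osmotic and mechanical stimuli, was under the minimum at 0.566 and 0.184 FPKM, with H3K36me3 over 6.05% and 50.6% of its locus.

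Voltage-gated calcium channels were represented by Cacna1c, the pore of the L-type channel that carries the main depolarisation-induced current of arterial muscle. Cacna1c stood at 5.59 FPKM without AngII (3.24 to 7.95) and 5.53 FPKM with it (3.20 to 7.86), and its log2 ratio of -0.01 was 0.23 under centring. The auxiliary subunit genes Cacnb3 and Cacna2d1 had more RNA than the pore gene, with bounds apart in each library. Cacnb3 stood at 31.4 FPKM (21.1 to 41.7) and 21.8 FPKM (14.1 to 29.4), and Cacna2d1 at 15.2 FPKM (10.9 to 19.5) and 12.6 FPKM (8.62 to 16.6). Both had overlapping bounds and log2 ratios of -0.51 and -0.25, the latter 0.01 under centring. Cacnb2, another beta subunit, stood at 1.22 FPKM without AngII (0.778 to 1.67) and 2.91 FPKM with it (1.98 to 3.84). Its bounds were apart and its log2 ratio was 0.81. Cacnb3 was far above Cacnb2 in both libraries. Cacnb1 stood at 1.04 and 1.18 FPKM.

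Among calcium channel pores under the minimum, Cacna1i, which encodes a T-type channel, differed most. It stood at 0.0418 FPKM without AngII (0.00583 to 0.0778) and 0.861 FPKM with it (0.565 to 1.16). The bounds were apart, and the ratio of the levels was 20.6 although its log2 ratio with 1 FPKM added was only 0.84. H3K4me3 within 1 kb of the locus went from 2754 to 6560 bp and H3K36me3 from 0% to 14.5% of the locus. Of the 107 genes under the minimum, 2 had bounds apart and higher, Cacna1i and Kcnk3, and 1 lower, Kcnk4 (0.204 FPKM in control and listed at 0 after AngII, at an interval shared by 7 loci). The shares of all symbols under the minimum were 0.748% and 0.764%. For Kcnk3 in control and Kcnk4 after AngII both bounds are 0 as well, so any lower bound above 0 in the other library sets them apart, and of these 3 genes only Cacna1i has a value above 0 in both libraries. Cacna1h, another T-type pore gene, stood at 0.00485 FPKM in control and was listed at 0 after AngII.

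**Figure D2:**
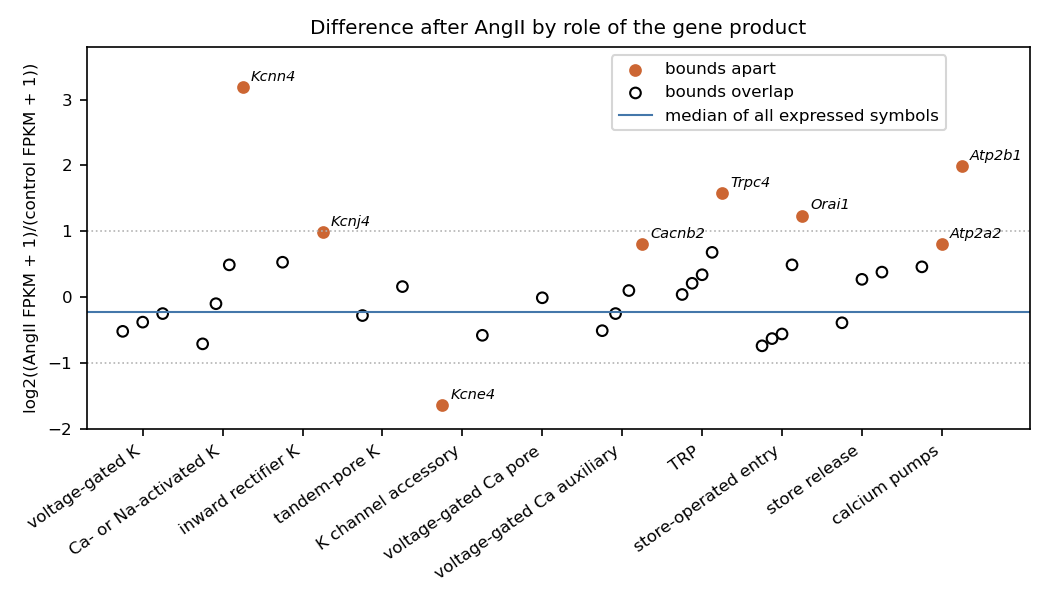
Log2 ratio of AngII over control, with 1 FPKM added, for the 34 expressed channel and pump genes by role group; filled points have bounds apart, dotted lines mark 2-fold and the blue line the median of all expressed symbols (-0.22). Kcnn4 (3.19) and Atp2b1 (1.99) are highest and Kcne4 (-1.64) is lowest.

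The leading potassium channel pore gene was not the same in the libraries. Kcnn4, the intermediate-conductance calcium-activated channel, stood at 5.48 FPKM without AngII (2.83 to 8.13) and 58.2 FPKM with it (34.0 to 82.3). The 10.6-fold difference had bounds far apart, and its log2 ratio of 3.19 ranked 25 of 8354 expressed symbols. Over the 72 potassium channel pore genes the summed level was 44.4 FPKM without AngII and 92.1 FPKM with it. Kcnn4 made up 12.4% of that sum in control and 63.2% after AngII, and without it the sum was 38.9 and 33.9 FPKM. The leading pore gene in control was Kcnk2, a mechanically gated background channel of the tandem-pore family, with 31.5% of the sum in control and 12.3% after AngII. Kcnk2 stood at 14.0 FPKM (8.06 to 19.9) and 11.3 FPKM (6.47 to 16.2), with overlapping bounds. Kcnn4 is listed at an interval of chromosome 1 (78937694 to 80633755) that 53 loci share, so marks were not assigned to it.

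The large-conductance calcium-activated channel showed RNA of its beta subunit but little of its pore. Kcnmb1, the smooth muscle beta subunit, stood at 9.37 FPKM without AngII (4.96 to 13.8) and 8.70 FPKM with it (4.58 to 12.8). Kcnma1, the pore gene, stood at 0.151 FPKM (0.0409 to 0.260) and 0.174 FPKM (0.0511 to 0.297). Neither gene had bounds apart between conditions, and within each library the bounds of the subunits were far from each other. The Kcnma1 locus of 628 kb had H3K4me3 in both conditions, with H3K36me3 over 0.657% and 0.0873% of its length. Kcnmb4 stood at 0.474 and 1.07 FPKM. Kcnn1, a small-conductance channel gene at an interval shared by 9 loci, stood at 2.04 and 0.854 FPKM with overlapping bounds.

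Of the 3 expressed voltage-gated potassium channel genes, Kcnd3 and Kcnh2 lay below 0 with overlapping bounds. Kcnq1 did too, but it passed the minimum in control only, which fixes its direction. Kcnd3, a transient outward channel, stood at 7.38 FPKM (4.21 to 10.6) and 5.45 FPKM (3.05 to 7.85), Kcnh2 at 4.39 FPKM (2.40 to 6.38) and 2.76 FPKM (1.45 to 4.08), and Kcnq1 at 1.17 and 0.817 FPKM. Their log2 ratios of -0.38, -0.52 and -0.25 stayed below 0 under both scalings, and the median of all expressed symbols, as deposited, lay below 0 as well. Kcna5, a pore gene known from arterial muscle, was listed at 0 in both libraries.

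The lowest log2 ratio of the set belonged to an accessory subunit. Kcne4, a small membrane protein that modulates voltage-gated potassium channels, stood at 3.76 FPKM without AngII (1.52 to 5.99) and 0.530 FPKM with it (0.0710 to 0.989). Control was 7.09-fold higher with bounds apart, a log2 ratio of -1.64 that ranked 24 from the bottom of 8354. Its short locus on chromosome 9 (78200903 to 78202092) had H3K4me3 in both conditions and H3K36me3 over 0% in control and 100% after AngII, the opposite direction to its RNA. The beta subunit gene Kcnab1 stood at 1.38 FPKM (0.638 to 2.13) and 0.590 FPKM (0.230 to 0.950), with overlapping bounds. The other 8 accessory genes were under the minimum.

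Among inward rectifiers 2 of 15 genes were expressed. Kcnj13 lay above 0, as did Kcnj4, whose direction is fixed because it passed the minimum after AngII only. Kcnj4 stood at 0.308 FPKM without AngII (0.0770 to 0.539) and 1.61 FPKM with it (0.712 to 2.50), 5.22-fold with bounds apart and a log2 ratio of 0.99. No H3K4me3 region lay within 1 kb of its 2.10 kb locus and no H3K36me3 region on it in either condition. Whether the annotated start site of Kcnj4 lies within that distance was not checked. Kcnj13 stood at 1.36 and 2.40 FPKM with overlapping bounds. Kcnj8, the pore of the vascular ATP-sensitive channel, was under the minimum at 0.561 FPKM (0.174 to 0.949) and 0.119 FPKM (0.0125 to 0.225). Of the tandem-pore genes, Kcnk6 stood at 4.35 and 4.97 FPKM. Kcnk3, an acid-sensitive background channel, was listed at 0 in control and stood at 0.642 FPKM after AngII (0.218 to 1.07). It carried H3K4me3 in both conditions, over 2601 and 2560 bp, and no H3K36me3.

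H3K4me3 was already present in control at nearly all expressed genes of the set. The listed interval is shared with other loci for 24 of the 141 genes, so marks are described for the 117 with an interval of their own. H3K4me3 was counted as present if any region came within 1 kb of the locus, and H3K36me3 if any region overlapped it. Of 25 expressed genes, 24 (96.0%) had H3K4me3 in control and the same 24 after AngII, against 95.2% of expressed symbols in each condition. The exception in both was Kcnj4, and 0 of the 25 had the mark in 1 condition only (0.418% of symbols after AngII only, 0.387% in control only). H3K36me3 was present at 22 of the 25 in control and 23 after AngII, against 94.6% and 96.9% of expressed symbols. Kcne4 had it after AngII only (2.88% of symbols), 0 had it in control only (0.558%), and Kcnj4 and Kcnmb4 had it in neither.

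H3K36me3 cover differed at several loci without a common direction of their RNA. Cover was higher after AngII by over 20 points at 6 of the 25 genes and lower at 1, Stim1, against 8.20% and 2.29% of expressed symbols. Of these 6 genes, Trpc4 and Atp2b1 had log2 RNA ratios above 0. The other 4 had ratios below 0, namely Kcne4, Cacnb3 (56.8% to 100%), Itpr2 (50.3% to 88.3%) and Kcnh2 (24.5% to 54.4%). For Kcne4 and Itpr2 the FPKM minimum fixes that direction. Over the 25 genes cover had a median of 61.4% before and 89.8% with AngII, while the median expressed symbol was covered over 100% in both. A locus covered over 100% in control cannot gain cover, so the shares with higher cover compare sets with unequal room to rise. Regions consist of bins of 589 bp in control and 548 bp after AngII, so short loci such as Kcne4 tend to be covered whole or not at all.

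**Figure D3:**
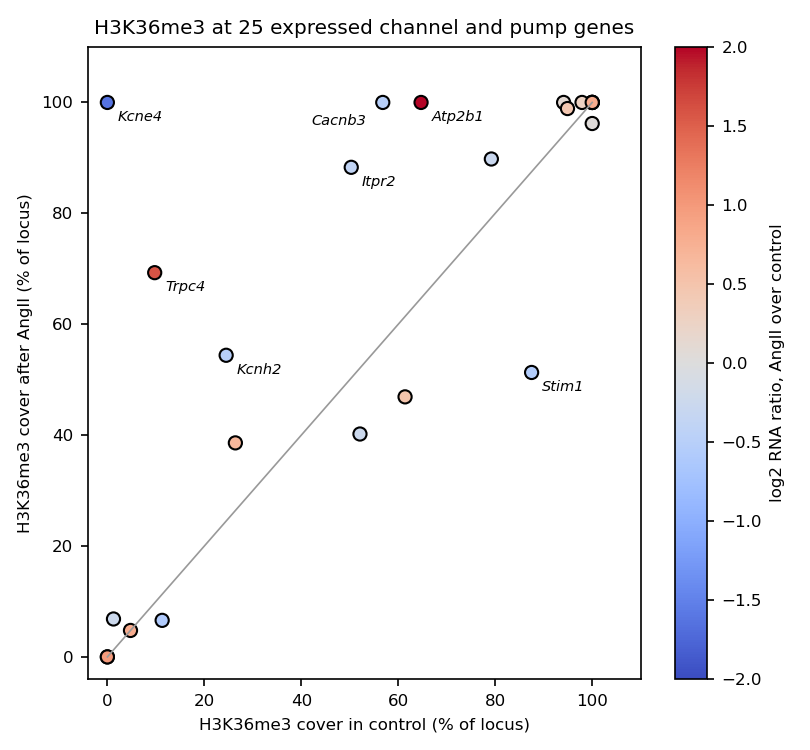
Percent of the locus covered by H3K36me3 regions in control (x axis) and after AngII (y axis) for the 25 expressed channel and pump genes with an interval of their own; colour gives the log2 RNA ratio and the grey line equal cover. The labelled genes differ by over 20 points: 6 lie above the line, of which Trpc4 and Atp2b1 had more RNA after AngII, and Stim1 lies below it.

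Many channel genes without appreciable RNA carried the promoter mark. Of the 92 genes under the minimum with an interval of their own, 58 (63.0%) had H3K4me3 in control and 58 after AngII, against 39.5% and 39.1% of all symbols under the minimum. In 56 of them the mark was present in both conditions. H3K36me3 was present at 23 and 31 of the 92, against 20.3% and 25.6% of symbols. The loci of the 92 genes were longer than usual, with a median of 36.9 kb against 10 kb for all symbols under the minimum, and a longer locus can hold a region more easily. Of the 35 loci under 20 kb 42.9% had H3K4me3 in control, against 29.2% of all symbols under the minimum of that length. From 20 to 100 kb the shares were 78.1% of 32 and 52.0%, and above 100 kb 72.0% of 25 and 73.9%. Where present in control, H3K4me3 had a median of 2295 bp at these genes, equal to the 2295 bp over all symbols under the minimum. At the expressed genes of the set it was 3978 bp, beside 4437 bp over all expressed symbols.

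Among the genes under the minimum, H3K4me3 was found in control only at 2 of the 92 genes, Kcnk1 among them, and after AngII only at 2, Kcna1 and Cacng2, against 2.18% and 1.83% of symbols. H3K36me3 was found after AngII only at 11 genes and in control only at 3, against 8.34% and 3.11%. Among those with the most RNA, Kcnd1 (0.713 and 0.481 FPKM) went from 0% to 89.0% of the locus, Trpv6 (0.414 and 0.368 FPKM) had 0.307% after AngII and none in control, and Cacna1e (0.404 and 0.298 FPKM) went from 3.16% to 0%. Cover was higher by over 20 points at 8 of the 92 and lower at 0, against 7.30% and 1.24% of symbols.

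**Figure D4:**
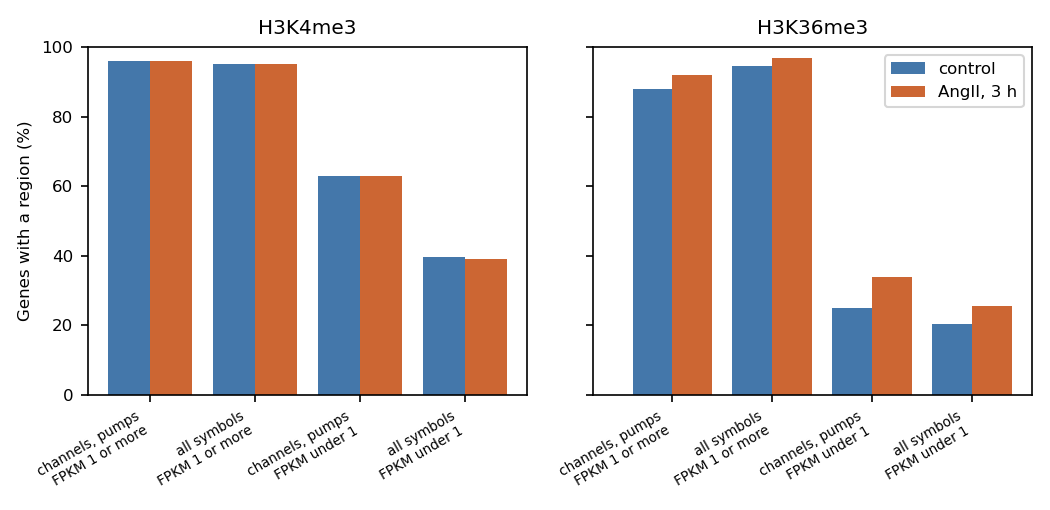
Percent of genes with an H3K4me3 region within 1 kb (left) and an H3K36me3 region on the locus (right) in control (blue) and after AngII (orange), for channel and pump genes and for all symbols, split at 1 FPKM and limited to loci with an interval of their own. H3K4me3 stands at 63.0% of the channel and pump genes under 1 FPKM and at 39.5% of all symbols under 1 FPKM in control.

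The signalling chain upstream of these channels showed a mixed picture. Of 18 genes of Gq signalling and store release with a locus, 15 were expressed. Their median log2 ratio was 0.01, and 2-fold differences were seen for 1 gene in each direction. Of all expressed symbols 3.89% were 2-fold higher and 2.96% 2-fold lower. The lower gene was the AngII receptor Agtr1a (-1.69, bounds apart), and the higher one was Itpkc (1.03, bounds overlapping), a kinase that phosphorylates inositol trisphosphate. Itpkc stood at 4.97 and 11.2 FPKM. The phospholipase Plcd1 (0.84) and the kinase Prkcd (0.69) followed, with overlapping bounds.

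Calcium buffers, exchangers and store proteins had a median of -0.01 over 19 expressed genes of 25. Of the 19 genes 1 was 2-fold higher and 0 lower, against 3.89% and 2.96% of all expressed symbols. The higher gene was Jph2, which ties the store to the plasma membrane, at 39.0 and 88.4 FPKM (1.16, bounds overlapping). Pkd2, a TRP family channel outside the naming rule, stood at 155 and 251 FPKM (0.69). Pln, the inhibitor of the SERCA pump, stood at 110 and 80.9 FPKM (-0.43, and -0.16 under centring), with overlapping bounds. The mitochondrial exchanger Slc8b1 stood at 6.79 and 4.93 FPKM. Calmodulin and its kinases had 12 expressed genes of 16, 0 of them past 2-fold or with bounds apart, and a median of -0.08. The genes furthest from 0 were Calm3 (-0.41), Camk1 (-0.27), Camk2d (0.25) and Ppp3ca (-0.17), of which Camk1 was at 0.00 and Ppp3ca at 0.10 under centring.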

How the data were processed

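The genes and lists described here were chosen with earlier results of these data known. RNA libraries were depleted of ribosomal RNA, per the labels' protocols. The authors deposited FPKM values with bounds in 1 table for both conditions. Per the submitters' processing notes they used TopHat, Cufflinks and Cuffdiff with the assembly rn4, and versions are not stated. For ChIP-seq the authors deposited regions with 2 score values each. The second, which grows with region width, served only as a filter within a list. Reads were aligned with Bowtie, per the submitters' processing notes, and no source used here names the region caller. The 2 input libraries were not analysed here.

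Of 30937 loci 15 without a usable estimate were left out. Accessions were matched to symbols through a RefSeq table of GRCr8, used for names and promoter sequence only, and 16025 of the 20869 loci with an accession matched exactly 1 symbol. Some loci, as those of Orai1, Trpc4, Cacnb2 and Cacna1i, list further accessions that did not match. Coordinates of loci are those of the files. With 1 library per condition no test was run. A gene was counted at 2-fold with a pseudocount of 1 FPKM, and bounds that do not overlap are given beside it.

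The naming rule took up to 4 expressed genes with the highest mean FPKM per role group, every expressed gene past 2-fold or with bounds apart, and a set of vascular channel genes. It also took up to 5 genes per mark with a region in 1 condition only and, from each partner list, the 4 expressed genes furthest from a log2 ratio of 0. Orai2, Trpv2 and Kcnk4 were named after their values were seen. Some genes these rules select are left out of the text. Alternatives varied the pseudocount, the FPKM minimum, the fold, the scaling, the choice of locus and the region rules. Python 3.11.15, pandas 2.3.3, numpy 2.4.6, scipy 1.17.1 and matplotlib 3.10.9 were used, and the measures were tested on simulated data.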

Additional observations from a re-analysis of the deposited data

How the results depend on the processing

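The count of 4 genes at least 2-fold higher after AngII was 7 with a pseudocount of 0.1, 7 when AngII values were scaled to centre the median locus, 7 with bounds apart as the rule and 8 at 1.5-fold. It stayed at 3 to 5 under the other 6 settings. The count of 1 gene 2-fold lower was 4 with a pseudocount of 0.1, 4 at 1.5-fold, 0 with a pseudocount of 5 and 0 with an FPKM minimum of 5. Except for bounds apart, the shares of all expressed symbols under these settings were not computed, so the changed counts have no background beside them. The median log2 ratio of 0.13 ranged over the 8 settings run on it from 0.00 with no FPKM minimum to 0.39 when centred. Genes with H3K36me3, 66 in control and 77 after AngII, numbered 40 and 51 when regions had to cover 10% of the locus, and 21 and 34 at 50%. The H3K4me3 count of 106 in each condition stayed within 1.5 times of that under every alternative run. Of the recomputed log2 ratios of 47 named genes, 203 stayed within the SD implied by their bounds and 32 did not. Some of the 203 could not move. A gene with 1 locus keeps its value when loci are summed, and a gene listed at 0 in both libraries keeps it under every setting. Of the genes past 2-fold 0 reversed, but no pseudocount or scaling used here could have reversed them, so their sign was not tested. No paired analysis was possible because there is 1 library per group, which also prevents leaving any out. Bounds of these widths separate only large differences, so overlap of bounds does not show equal levels.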

Other observations

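Ion channels and transporters outside the naming rule also differed in places. Of 15 such genes with a locus 13 were expressed, with a median log2 ratio of 0.34 (0.62 under centring). Over all expressed symbols the median was -0.22 (0.03 under centring). Of the 13 genes 2 were at least 2-fold higher and 0 lower, against 3.89% and 2.96% of all expressed symbols. Ano1, a calcium-activated chloride channel that depolarises smooth muscle, stood at 1.77 FPKM without AngII and 5.23 FPKM with it (1.17, bounds apart). Lrrc8a, a subunit of the volume-regulated anion channel, stood at 16.6 and 40.2 FPKM (1.23), with overlapping bounds and at an interval shared by 22 loci. The stretch-activated channel Piezo1 (0.66) and the sodium, potassium and chloride cotransporter Slc12a2 (0.56) followed, with overlapping bounds.

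Transcription factors known to regulate channel genes had 9 expressed genes of 9 with a locus and a median log2 ratio of 0.17 (0.45 under centring). Fos (2.34) was the only one past 2-fold and with bounds apart. Myocd (0.97), Nfatc3 (-0.96) and Jun (0.90) were the next furthest from 0, and Nfatc3 stood at 25.4 and 12.5 FPKM. Rest, a repressor of neuronal and channel genes, stood at 31.7 and 35.9 FPKM with overlapping bounds. It was named after its value was seen.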
